A study of Mus musculus with 8 samples.

Results

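The hypoxia genes described here are Hif1a, Epas1, Egln1, Egln3, Ndrg1, Ankrd37, Bnip3 and Adm, 8 of 21271 genes tested in mouse kidney. They were chosen by name, as factors and known targets of the hypoxia-inducible factor (HIF) pathway, and all 8 had a probe well above background on all 8 arrays. RNA of 8 left kidneys, removed 24 h after surgery, was read on 1-colour Agilent arrays, in 4 groups of 2 mice. Mice are named by their group and the number in the labels. Sham mice (1 and 4) received a midline abdominal incision and nothing else. In ischaemia-reperfusion mice (IRI, 30 and 34) the right kidney was removed and the left renal vessels were clamped for 45 min. Mimic mice (6 and 7) had that same operation 2 days after 5 nmol of a miR-5100 mimic, carried on polyethylenimine nanoparticles in 200 µl, was injected into the tail vein. Control-miRNA mice (1 and 5) received a control small RNA in the same way before the operation. Strain, age and sex are not given in the sources used here. Every injured mouse also lost the other kidney, so the clamp and the nephrectomy cannot be told apart. No group had the particles or the mimic without injury.

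HIF is a pair of proteins, an oxygen-regulated alpha subunit and a constant beta subunit. With oxygen present, prolyl hydroxylases (the Egln enzymes) mark the alpha subunit, the Vhl complex recognises the mark, and the subunit is degraded. When oxygen falls the alpha subunit persists and switches on genes of glycolysis, blood supply, mitochondrial turnover and feedback. In the kidney, Hif1a is known mainly from tubular cells and Epas1 (HIF-2 alpha) from interstitial and endothelial cells. Because oxygen acts on the protein, the mRNA of an alpha subunit is not a measure of HIF activity.

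HIF binds a short core, ACGTG or GCGTG, so the 300-base promoters of the members were searched for it in the RefSeq sequences of GRCm38.p6 (250 bases before to 50 after the start of the gene). The table held 6 of the 8 members, without Epas1 and Ndrg1. Of 32851 promoters of that length, 19.6% held ACGTG on either strand, 32.4% held GCGTG and 43.8% held at least 1 of them. All 6 members with a sequence held at least 1 core. The promoters of Egln1, Bnip3 and Adm are shown because these genes carry most of the differences reported here. Capitals mark a core on either strand, read 5′ to 3′ on the strand of the gene (CACGT and CACGC are the cores of the other strand). The Egln1 window is chr8:124949205-124949504 on the minus strand, the Bnip3 window chr7:138909457-138909756 on the minus strand and the Adm window chr7:110627407-110627706 on the plus strand.
Egln1: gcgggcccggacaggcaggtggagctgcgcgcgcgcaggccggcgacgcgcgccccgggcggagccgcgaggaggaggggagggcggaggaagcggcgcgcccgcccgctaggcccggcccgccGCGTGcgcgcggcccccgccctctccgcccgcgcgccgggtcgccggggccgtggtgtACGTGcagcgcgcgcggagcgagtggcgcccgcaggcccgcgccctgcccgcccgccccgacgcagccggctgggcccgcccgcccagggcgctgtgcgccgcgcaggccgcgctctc
Bnip3: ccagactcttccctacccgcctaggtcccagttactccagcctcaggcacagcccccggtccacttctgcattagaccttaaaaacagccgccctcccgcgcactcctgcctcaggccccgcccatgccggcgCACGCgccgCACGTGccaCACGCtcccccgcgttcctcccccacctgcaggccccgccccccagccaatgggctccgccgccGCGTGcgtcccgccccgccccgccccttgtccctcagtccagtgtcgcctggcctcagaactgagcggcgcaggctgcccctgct
Adm: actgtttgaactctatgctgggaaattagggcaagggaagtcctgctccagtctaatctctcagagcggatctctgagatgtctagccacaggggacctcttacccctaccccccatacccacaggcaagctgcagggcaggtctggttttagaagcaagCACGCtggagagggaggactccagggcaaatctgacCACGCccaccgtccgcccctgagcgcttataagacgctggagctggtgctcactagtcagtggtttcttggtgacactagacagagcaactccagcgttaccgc
The Egln1 window held 1 ACGTG and 1 GCGTG. The Bnip3 window held 3 GCGTG and 1 CACGTG, a palindrome that reads as ACGTG on both strands and was found in 7.15% of all windows. The Adm window held 2 GCGTG and no ACGTG. Hif1a had 1 CACGTG and 1 further ACGTG, Egln3 had 1 ACGTG, and Ankrd37 had 2 ACGTG and 2 GCGTG. A match describes the letters of these windows and does not show that HIF was bound there.

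The mimic is named after miR-5100, and the mature mouse miR-5100 is shown here with its seed (bases 2 to 8) in capitals. Whether the injected mimic had exactly this sequence was not checked.
mmu-miR-5100: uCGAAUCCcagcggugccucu

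Levels are log2 processed signal minus the 75th percentile of the array, so that 0 is the 75th percentile. A difference of 1 is a 2-fold change. All arrays lay on 1 slide, with sham and IRI in 1 row and both injected groups in the other, so slide row and injection cannot be told apart. Between 53.2% and 58.8% of spots were well above background on each array, and the number of arrays limits the precision. The 75th percentile of the signal was 401 and 469 for sham, 462 and 589 for IRI, 495 and 410 for control miRNA and 305 and 239 for mimic, lowest in both mimic mice. Sham mice differed least from one another, with a standard deviation of 0.33 over genes for the difference within the pair. It was 0.39 for the IRI pair, 0.51 for the control-miRNA pair and 0.67 for the mimic pair. Kidney identity was plain from its markers: all 10 proximal tubule genes on the list were well above background.

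**Figure D1:**
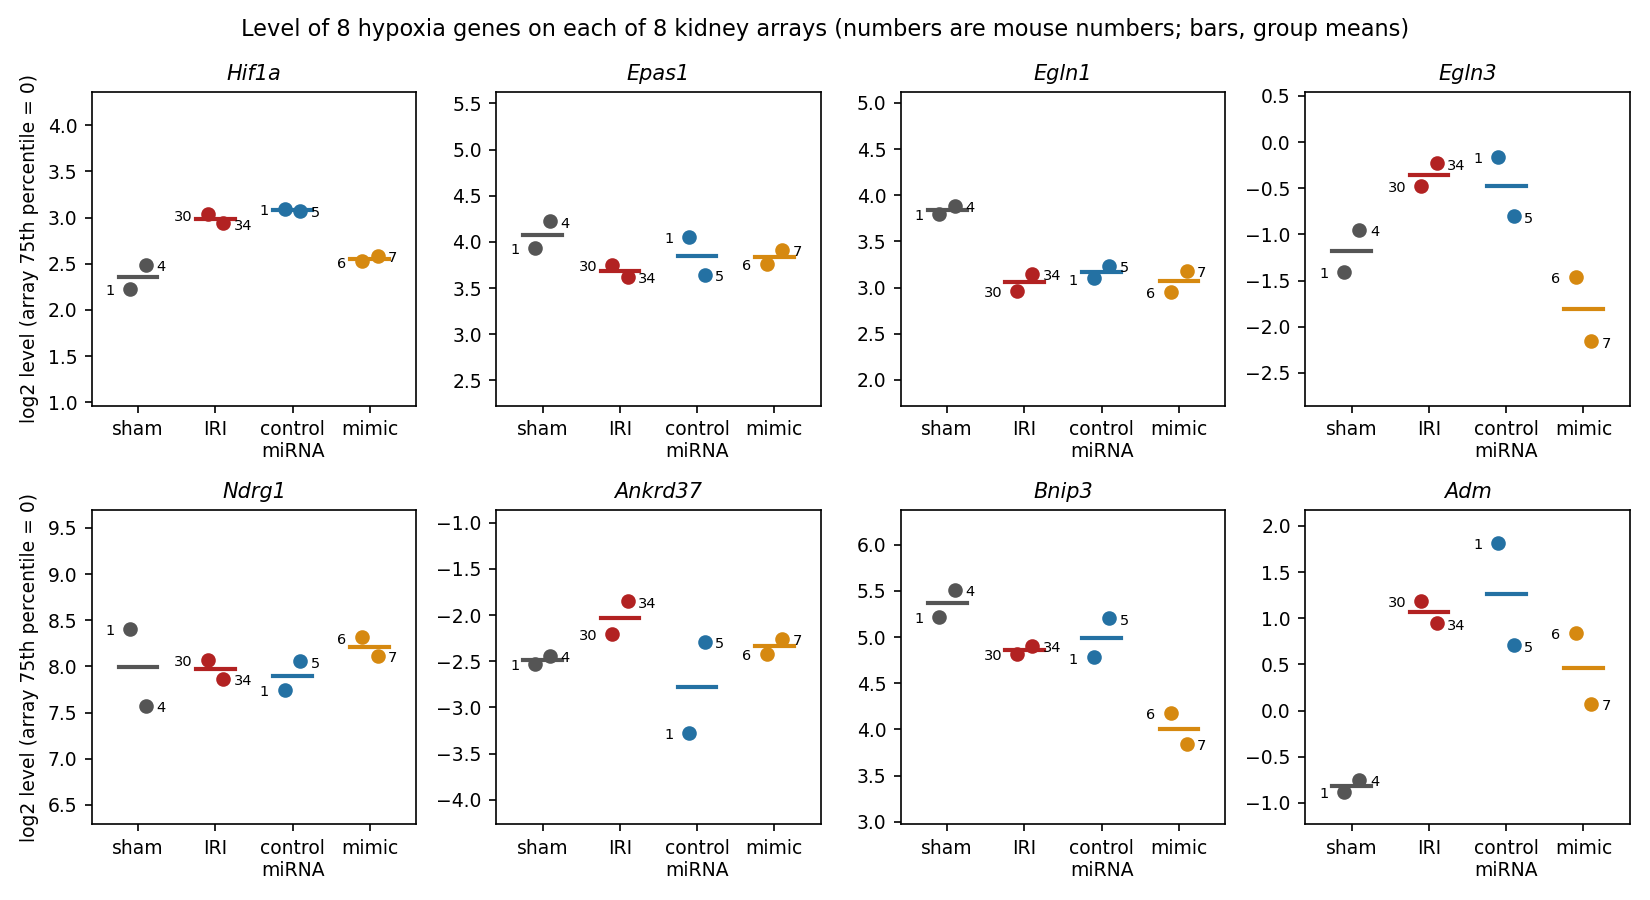
Level of each of the 8 hypoxia genes on each array (y axis, log2 with the 75th percentile of the array at 0, 1 panel per gene, each spanning the same number of log2 units). Points are mice, labelled with their numbers, and bars are group means of 2. Hif1a and Adm were higher and Egln1 lower in IRI and control-miRNA mice than in sham mice, and Egln3 and Bnip3 were lowest in mimic mice.

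The groups were compared in 6 pairs with limma on all 8 arrays, and a gene is called where its p-value, adjusted over all genes, was under 0.05. The comparisons share groups, so their values are given side by side and are not independent. In IRI against sham 3 of the 8 members were called (Hif1a and Adm higher, Egln1 lower), beside 18.3% of all genes (9.47% higher and 8.82% lower). The same 3 were called in control-miRNA against sham, in the same directions, beside 17.3% of all genes (9.47% higher and 7.87% lower). In mimic against sham 2 were called, Egln1 and Bnip3, both lower, beside 27.9% of all genes (14.9% higher and 13.0% lower). In mimic against IRI 2 were called, Egln3 and Bnip3, both lower, beside 15.4% of all genes (9.85% higher and 5.59% lower). In limma, 0 members were called in control-miRNA against IRI, with 0 at an unadjusted p under 0.05, and 0 in mimic against control-miRNA, with 3 at an unadjusted p under 0.05. In both of these comparisons 0% of all genes were called, although 862 and 7181 genes had an unadjusted p under 0.05. Ranges of the 2 groups did not overlap for 7, 5, 7 and 7 members in the first 4 of these comparisons, beside 71.8%, 68.7%, 68.7% and 67.3% of all genes. They did not overlap for 2 members in control-miRNA against IRI and 4 in mimic against control-miRNA, beside 32.6% and 59.0%. With most genes not overlapping in 5 of the 6 comparisons, these counts are no result about the members.

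These counts rest on few mice. In IRI against sham the count of called members was 0 without sham 1, sham 4, IRI 30 or IRI 34. In control-miRNA against sham it was 0 without sham 1, sham 4 or control-miRNA 1, and 1 without IRI 30, IRI 34 or control-miRNA 5. In mimic against sham it was 1 without sham 1 and 0 without sham 4. In mimic against IRI it was 2 without mimic 6 and 0 without any 1 of the other 7 arrays, and in mimic against control-miRNA it was 2 without mimic 6. Leaving out 1 array gives a group of 1 mouse whose spread is taken from the other groups.

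Hif1a encodes the alpha subunit HIF-1 alpha. Its level was 2.23 and 2.49 for sham, 3.03 and 2.94 for IRI, 3.09 and 3.07 for control miRNA and 2.53 and 2.58 for mimic. The 4 kidneys of IRI and control-miRNA mice lay above all others, and the mimic kidneys lay just above sham. Hif1a rose 1.55-fold in IRI against sham (0.63 ± 0.16, standard error, adjusted p = 0.0411, limma) and 1.65-fold in control-miRNA against sham (0.72 ± 0.16, adjusted p = 0.0285). The mimic minus sham difference was 0.20 with a 95% confidence interval from -0.19 to 0.58 and an adjusted p of 0.388. The mimic minus IRI difference was -0.43 (adjusted p = 0.0991) and the mimic minus control-miRNA difference -0.53 (adjusted p = 0.0851). The mice did not overlap in either pair, and neither difference passed the test. The IRI call held in 11 of 20 alternatives and the control-miRNA call in 12 of 20. Not all alternatives are distinct, since leaving out either array of a group outside the comparison gave the same result. With no filter on dim probes the IRI adjusted p was 0.108, and with array brightness as a covariate it was 0.0976. Leaving out single arrays kept the IRI difference between 0.50 and 0.76, and its adjusted p reached 0.263 without sham 1.

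The array carries 3 probes named Hif1a, and they did not move together. The probe used for the gene targets the Hif1a mRNA (mm9, chr12:75047819-75047878, plus strand). Another is designed on the clone AK048798 and is listed on the minus strand at chr12:75027538-75027597, opposite to the gene, so as listed it matches RNA of the other strand. Its sequence is shown because its pattern differs from that of the mRNA.
AK048798 probe: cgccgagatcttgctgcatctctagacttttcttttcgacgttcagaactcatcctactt
This probe was dim but well above background on all 8 arrays. Its level was -3.96 and -4.38 for sham, -4.09 and -4.23 for IRI, -4.38 and -3.96 for control miRNA and -2.90 and -2.74 for mimic. Both mimic kidneys stood above the other 6, and sham, IRI and control-miRNA overlapped. The mimic minus IRI difference was 1.34, the IRI minus sham difference 0.01. Its unscaled signal was 22.6 to 31.4 outside the mimic group and 35.9 and 40.8 within it, on the arrays with the lowest overall brightness. The part that brightness plays was not tested for this probe. The remaining probe, at chr12:75033965-75034024 on the plus strand, was not well above background on any of the 8 arrays. Averaging the mRNA and clone probes changed the calls. The IRI minus sham difference became 0.32 (adjusted p = 0.209), the control-miRNA minus sham difference 0.36 (adjusted p = 0.168) and the mimic minus sham difference 0.77 (adjusted p = 0.0165). The other 7 members have 1 probe each.

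**Figure D2:**
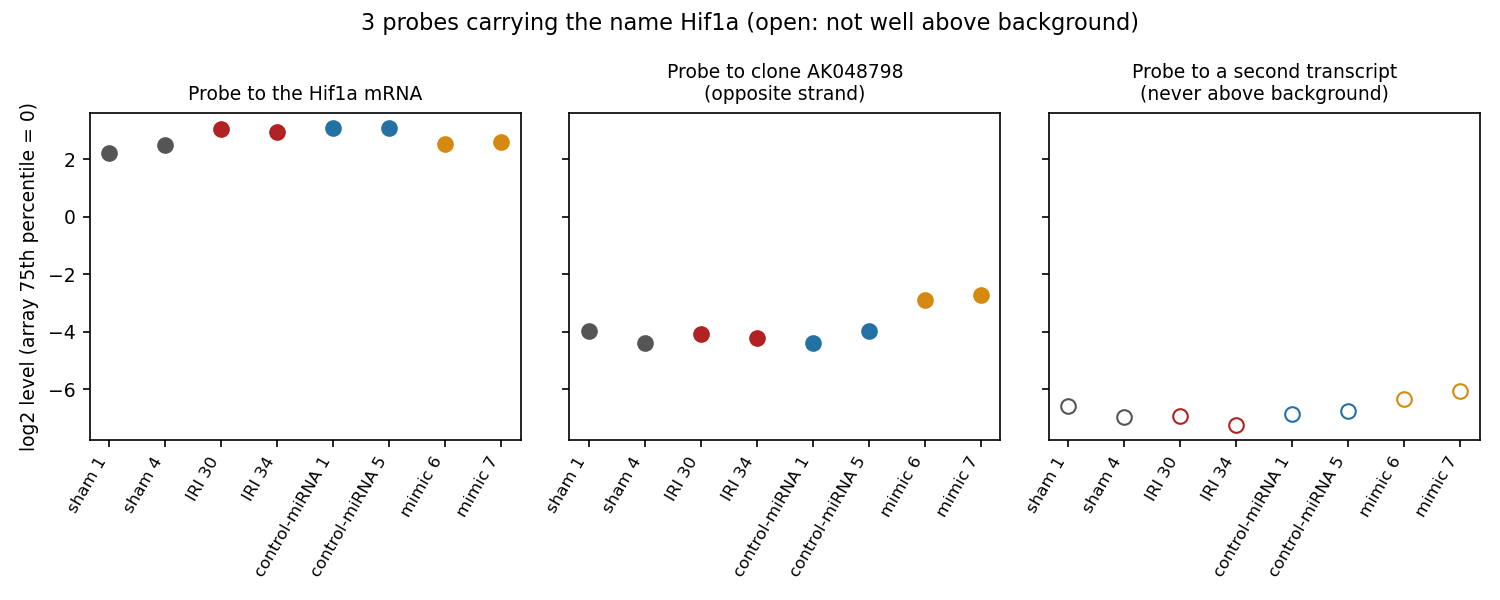
Level on each array (y axis, log2 with the array 75th percentile at 0) of the 3 probes named Hif1a, 1 panel per probe, with open points where the probe was not well above background. The mRNA probe was high in IRI and control-miRNA mice, the opposite-strand clone probe stood between -2.90 and -2.74 in mimic mice against -4.38 to -3.96 elsewhere, and the last probe never rose above background.

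Epas1 encodes HIF-2 alpha, and its probe lies at chr17:87232615-87232674 (mm9, plus strand). Its level was 3.93 and 4.22 for sham, 3.75 and 3.63 for IRI, 4.05 and 3.64 for control miRNA and 3.76 and 3.92 for mimic. Sham was highest on average, control-miRNA 1 lay within the sham range and control-miRNA 5 within the IRI range, and no comparison passed the test. The IRI minus sham difference was -0.39, with a 95% interval from -0.87 to 0.10 and an adjusted p of 0.227, so a fall of up to 0.87 on the log2 scale is within its error. The adjusted p was 0.470 for control-miRNA and 0.402 for mimic against sham.

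Egln1 encodes PHD2, the main oxygen sensor that marks HIF alpha subunits in most cells, and its probe lies at chr8:127432510-127432569 (mm9, minus strand). Its level was 3.80 and 3.89 for sham, 2.97 and 3.14 for IRI, 3.10 and 3.23 for control miRNA and 2.95 and 3.18 for mimic. All 6 injured kidneys lay below both sham kidneys, and the 3 injured groups overlapped one another. Egln1 fell 1.73-fold in IRI (-0.79 ± 0.17, adjusted p = 0.0237), 1.60-fold in control-miRNA (-0.68 ± 0.17, adjusted p = 0.0387) and 1.71-fold in mimic mice (-0.78 ± 0.17, adjusted p = 0.0190), each against sham. The mimic minus IRI difference was 0.01, with a 95% interval from -0.39 to 0.41. Leaving out single arrays kept the IRI difference between -0.88 and -0.70, with adjusted p between 0.0138 and 0.145, highest without sham 4. The IRI call was lost without any 1 of the 4 arrays compared, with no filter on dim probes (adjusted p = 0.0635) and with array brightness as a covariate (adjusted p = 0.0693). It held in 14 of 20 alternatives, the control-miRNA call in 13 of 20 and the mimic call in 14 of 19, not all of them distinct.

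Fewer cells of a type and less RNA per cell cannot be told apart in whole tissue, and markers of several nephron segments were lower in the injured kidneys. Over all genes 8.82%, 7.87% and 13.0% were called lower in IRI, control-miRNA and mimic mice against sham. Of the 10 proximal tubule markers, 8 fell in each injured group against sham and 0 rose. Their summed level (linear, 75th percentile = 1) was 945 to 988 in sham, 351 to 367 in IRI, 325 to 392 in control-miRNA and 288 to 421 in mimic mice. Of 8 distal and collecting duct markers 5 fell in each injured group, with summed levels of 72.0 to 75.8 for sham, 28.6 to 30.0 for IRI, 31.3 to 33.6 for control-miRNA and 21.1 to 28.7 for the mimic group. Scnn1b of that list was called higher in IRI and control-miRNA mice, at mean levels of -3.88 and -3.89 against -4.54 in sham mice. It was not well above background in sham mice and passed the filter only through injured groups, so this call is no support for a rise. Of 5 thick ascending limb markers 3, 2 and 1 fell in the IRI, control-miRNA and mimic groups. Their summed level was 255 to 301 in sham, 175 to 286 in IRI, 287 to 290 in control-miRNA and 184 to 199 in mimic mice. Both control-miRNA mice and IRI 34 thus lay within the sham range. Egln1 was low on the 6 arrays of injured kidneys. The genes whose levels followed Egln1 most closely over the 8 arrays were Slc39a8, Slc7a13 and Akr1c14 (Pearson r of 0.995, 0.995 and 0.992). Slc7a13, a transporter of the straight proximal tubule, fell by 5.48 on the log2 scale in IRI against sham. The median difference of the 10 proximal tubule markers there was -1.56, and Slc22a6 (-0.17) and Hnf4a (-0.59) were not called. Whether the fall of Egln1 is tied to the lower tubular markers was not tested.

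Egln3 encodes PHD3, a prolyl hydroxylase that is itself a HIF target and feeds back on the pathway, and its probe lies at chr12:55280953-55281012 (mm9, minus strand). Its level was -1.40 and -0.95 for sham, -0.47 and -0.23 for IRI, -0.16 and -0.80 for control miRNA and -1.46 and -2.16 for mimic. Both mimic kidneys lay below both sham kidneys, and all 4 IRI and control-miRNA kidneys lay above them. Egln3 was 2.74-fold lower in mimic than in IRI mice (-1.46 ± 0.33, adjusted p = 0.0400). Against control-miRNA the mimic difference was -1.33 (2.51-fold lower, adjusted p = 0.0680), which did not pass the test. The differences from sham were 0.82 in IRI (adjusted p = 0.128), 0.70 in control-miRNA (adjusted p = 0.187) and -0.63 in mimic mice (adjusted p = 0.180), none past the threshold. Both mimic arrays were the dimmest of all, so brightness and the mimic group cannot be fully told apart. Once array brightness entered the fit as a covariate, the mimic minus IRI difference was 0.10 ± 0.44 (adjusted p = 1.00), so the sign turned and the call was lost. Its adjusted p was 0.0727 without either sham array, 0.0894 without IRI 30, 0.228 without IRI 34, 0.123 without mimic 7 and 0.0512 without either control-miRNA array.

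Ndrg1 encodes a stress-responsive protein that low oxygen induces in many cells, and its probe lies at chr15:66760903-66760962 (mm9, minus strand). Its level was 8.41 and 7.57 for sham, 8.07 and 7.86 for IRI, 7.75 and 8.05 for control miRNA and 8.31 and 8.11 for mimic. The sham mice alone spanned more than all 6 injured mice did, and none of the 6 comparisons passed the test. The IRI minus sham difference was -0.02, with a 95% interval from -0.72 to 0.67, so a change of either sign within that interval was not detectable with 2 mice per group.

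Ankrd37 encodes a small ankyrin-repeat protein and is a direct HIF-1 target. Its probe (mm9, chr8:47082404-47082463, minus strand) read below the 75th percentile on every array, with levels of -2.53 and -2.44 for sham, -2.21 and -1.85 for IRI, -3.28 and -2.29 for control miRNA and -2.42 and -2.26 for mimic. IRI lay above sham without overlap, while control-miRNA 1 was lower than all other mice. The IRI minus sham difference was 0.46 (adjusted p = 0.353) and the control-miRNA minus IRI difference -0.75 (unadjusted p = 0.0528, adjusted p = 0.999), and no comparison passed the test.

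Bnip3 encodes an outer mitochondrial membrane protein that acts as a receptor for mitophagy, the removal of mitochondria, and its probe lies at chr7:146082760-146082819 (mm9, minus strand). Its level was 5.22 and 5.51 for sham, 4.82 and 4.90 for IRI, 4.78 and 5.20 for control miRNA and 4.18 and 3.84 for mimic. Every injured kidney lay below both sham kidneys, and the mimic kidneys lay below all others. Bnip3 fell 2.56-fold in mimic against sham (-1.36 ± 0.22, adjusted p = 0.00784) and was 1.81-fold lower in mimic than in IRI mice (-0.85 ± 0.22, adjusted p = 0.0474). Against control-miRNA the mimic difference was -0.98 (1.98-fold lower, adjusted p = 0.0670), which did not pass the test. The differences from sham were -0.50 in IRI (adjusted p = 0.160) and -0.37 in control-miRNA (adjusted p = 0.284).

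The mimic minus sham difference of Bnip3 stayed between -1.52 and -1.19 when single arrays were left out, and the call was lost only without sham 4 (adjusted p = 0.0686). With array brightness as a covariate it was -1.18, with an adjusted p of 0.208. The mimic minus IRI call of Bnip3 was lost in 13 of 19 alternatives, not all of them distinct. Among these were quantile normalization (-0.69, adjusted p = 0.0764, limma) and 7 of the 8 fits that left out an array. Of the fits that left out an array, only that without mimic 6 kept the call.

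Adm encodes adrenomedullin, a vasodilator peptide and HIF target, and its probe lies at chr7:117773088-117773147 (mm9, plus strand). Its level was -0.88 and -0.75 for sham, 1.19 and 0.94 for IRI, 1.82 and 0.71 for control miRNA and 0.84 and 0.08 for mimic. All 6 injured kidneys lay above both sham kidneys, and the 2 control-miRNA mice lay farther apart than the means of any pair of injured groups. Adm rose 3.69-fold in IRI (1.88 ± 0.40, adjusted p = 0.0225) and 4.23-fold in control-miRNA mice (2.08 ± 0.40, adjusted p = 0.0181) against sham. In mimic mice the difference was 2.42-fold (1.27 ± 0.40, adjusted p = 0.0541), which did not pass the test. It passed with normexp (adjusted p = 0.0363), with an intensity trend and robust prior (0.0369), with probes above background on all arrays (0.0421) or with the percentile taken over those probes (0.0462). It also passed without mimic 7 (0.0492) or either control-miRNA array (0.0285). The mimic minus IRI difference was -0.61, with a 95% interval from -1.56 to 0.34 and an adjusted p of 0.288. With array brightness as a covariate the IRI minus sham difference was 1.51 (adjusted p = 0.0838). The call was also lost without sham 1 (adjusted p = 0.127), sham 4 (0.102), IRI 30 (0.115) or IRI 34 (0.0902). The control-miRNA call was lost without sham 1 (adjusted p = 0.110), sham 4 (0.0896) or control-miRNA 1 (0.0709).

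**Figure D3:**
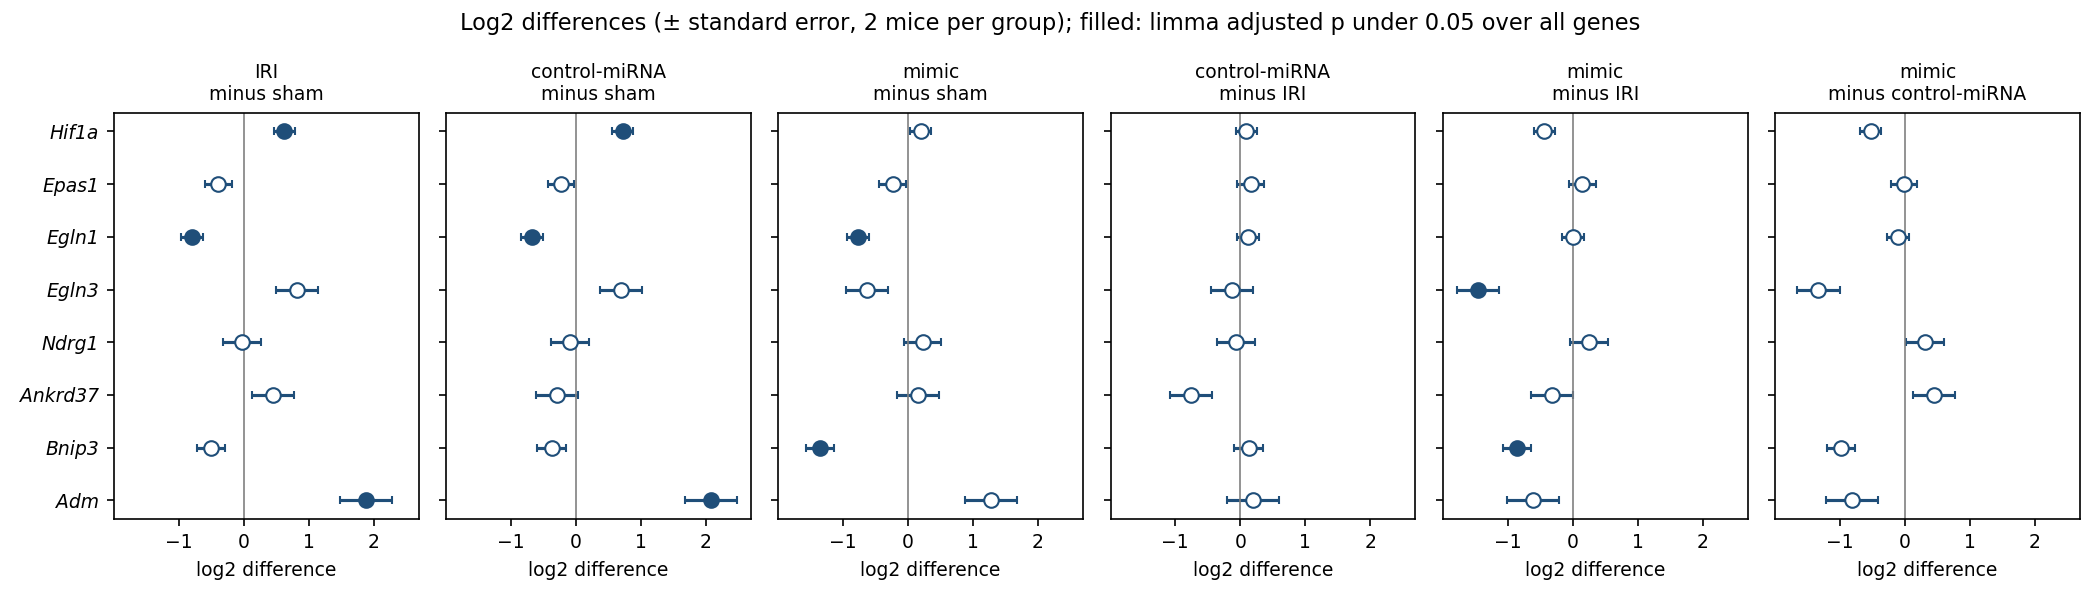
Log2 difference (x axis) of each of the 8 genes in the 6 comparisons, with standard errors from the limma fit on 2 mice per group and filled points where the adjusted p over all genes was under 0.05. Filled points are 3 genes in IRI and in control-miRNA against sham, 2 in mimic against sham, 2 in mimic against IRI and 0 in the remaining comparisons.

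The order of the mean levels over the groups differed between members. Hif1a, Egln3 and Adm had control-miRNA and IRI as their highest pair, whereas Epas1, Egln1 and Bnip3 were highest in sham. Of the groups next to each other in these orders, only control-miRNA and sham for Egln1 and mimic and IRI for Bnip3 differed past the test. The order of all other neighbours is not settled by these mice.

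Other genes of the HIF pathway were taken from lists of 101 genes, of which 98 were tested. In IRI against sham 25 of the 98 were called, 15 higher and 10 lower, with a median difference of 0.10, beside 18.3% called and a median of -0.08 over all genes. In control-miRNA against sham 24 were called, 16 higher and 8 lower (median 0.11, all genes -0.05, 17.3% called), and in mimic against sham 32, 18 higher and 14 lower (median 0.14, all genes 0.10, 27.9% called). These 3 comparisons share the sham mice. In mimic against IRI 15 were called, 6 higher and 9 lower (median -0.11, all genes 0.09, 15.4% called). In limma, 0 were called in control-miRNA against IRI (6 at an unadjusted p under 0.05) and 0 in mimic against control-miRNA (36 at an unadjusted p under 0.05).

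Leaving out single arrays moved these counts widely. For IRI against sham, 8 pathway genes were called without sham 1 and 9 without sham 4. Without IRI 30 there were 8, without IRI 34 there were 11, and 39 were called without either mimic array. In control-miRNA against sham it was 6 without sham 1, 8 without sham 4 and 11 without control-miRNA 1, and in mimic against sham 16 without sham 1 and 10 without sham 4. In mimic against IRI it was 32 without mimic 6 and 0 without any 1 of the other 7 arrays. Over all genes, too, 0 were called in mimic against IRI without any 1 of those 7 arrays, with array brightness as a covariate, with array weights or with only the 4 arrays compared, so every call in that comparison was lost there. In mimic against control-miRNA it was 30 without mimic 6.

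**Figure D4:**
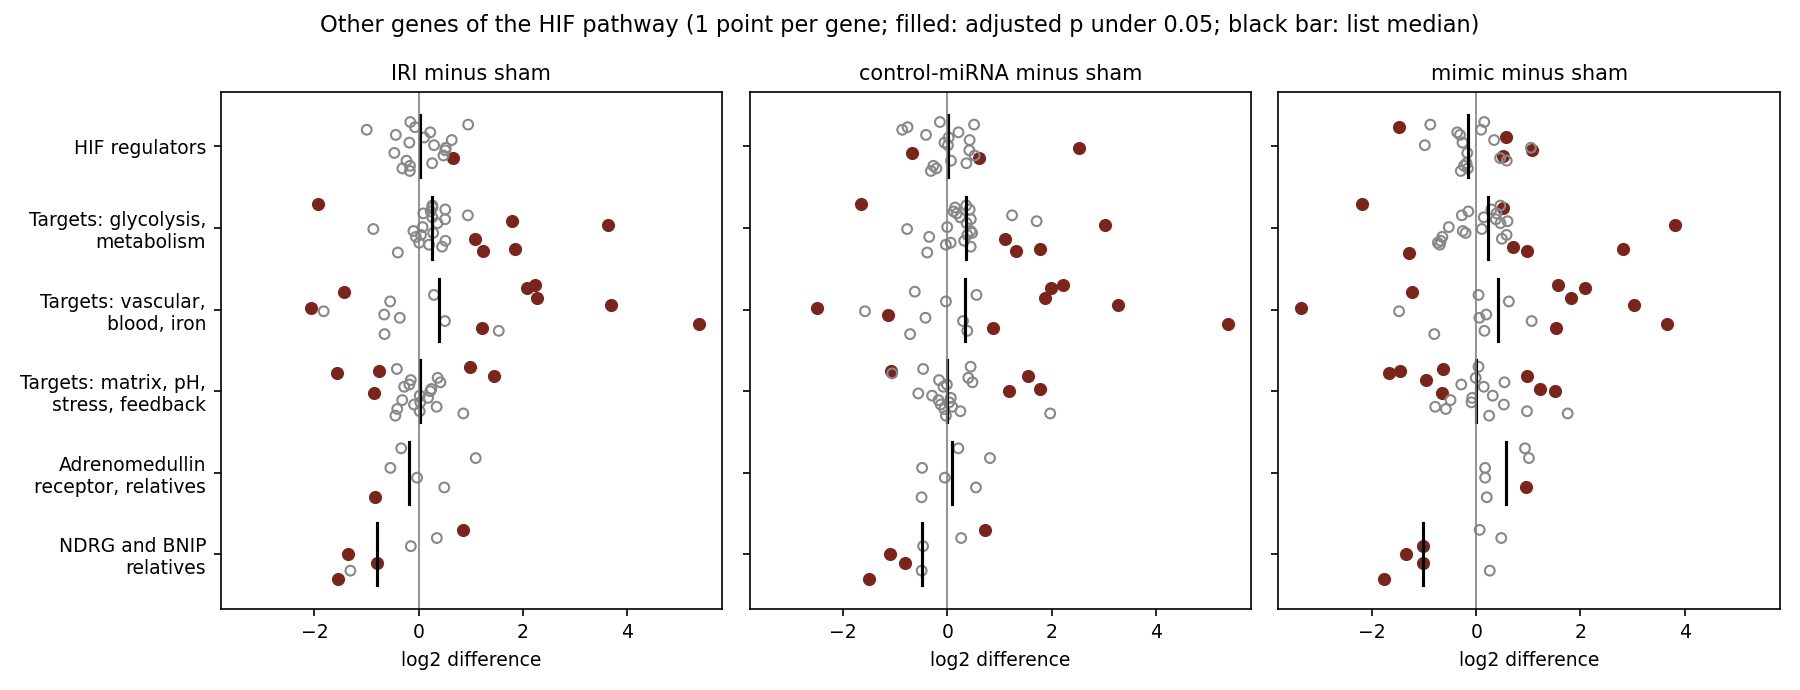
Log2 differences from sham (x axis) of 98 other genes of the HIF pathway in IRI, control-miRNA and mimic mice, 1 point per gene, grouped by role, filled where the adjusted p was under 0.05, with a black bar at the median of each group. The medians ran from -1.01 to 0.57, with single genes far out on either side, such as Hmox1 at 3.69 and Igfbp1 at -2.06 in IRI.

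Among 20 regulators of HIF, 1 was called in IRI against sham, 3 in control-miRNA against sham and 4 in mimic against sham. Over all genes the shares called were 18.3%, 17.3% and 27.9%. Rbx1, a ring-finger subunit of the ubiquitin ligase that Vhl joins, rose by 0.66 in IRI (adjusted p = 0.0292) and 0.60 in control-miRNA mice (adjusted p = 0.0400). Hif3a, an alpha subunit that can dampen HIF, was 2.53 higher in control-miRNA than in sham mice (adjusted p = 0.0149), against 0.52 in IRI (adjusted p = 0.453). Cited2, which competes with HIF for its coactivators, fell by 1.49 in mimic against sham (adjusted p = 0.00724), and the chaperone Hsp90aa1 was higher by 1.08 (adjusted p = 0.0104). In mimic against IRI 5 regulators were called, beside 15.4% of all genes. Arnt2 (-1.84), Cited2 (-1.42), Hif1an (-1.29), the asparaginyl hydroxylase that inhibits HIF, and Cul2 (-0.59), the scaffold of the Vhl ligase, were lower, and Sart1 (0.82) was higher (adjusted p from 0.0390 to 0.0480). The beta subunit Arnt, the hydroxylase Egln2 and Vhl, named outside the rule for named genes after their values were seen, had differences of -0.16, -0.44 and -0.17 in IRI against sham, with adjusted p from 0.145 to 0.526.

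Of 26 targets in glycolysis and metabolism, 6 were called in IRI against sham, 5 higher and 1 lower, beside 18.3% of all genes. In that comparison 21 of the 26 differences were positive, with a median of 0.27 against -0.08 over all genes. Hk2, a hexokinase, did not reach well above background in either sham mouse. It thus passed the background filter only through injured groups, where it was high. Its call, counted among those above, is therefore no separate support. Against sham its level was at least 9.29-fold higher in IRI, at least 6.06-fold in control-miRNA and at least 10.5-fold in mimic mice. The lactate exporter Slc16a3 rose by 1.85 in IRI (adjusted p = 0.00246) and by 2.82 in mimic mice (adjusted p = 0.00105), and was 0.98 higher in mimic than in IRI mice (adjusted p = 0.0390). The glucose transporter Slc2a1 rose by 1.24, 1.31 and 0.98 in the IRI, control-miRNA and mimic groups (adjusted p of 0.00488, 0.00443 and 0.00810). Pfkp, a phosphofructokinase, rose by 1.08 in IRI and Hilpda, a lipid droplet protein, by 1.79 (adjusted p of 0.0223 and 0.0471). Ak4, a mitochondrial adenylate kinase, fell by 1.94 in IRI (adjusted p = 0.0110). Ldha, Pgk1 and Pdk1, common readouts of HIF activity named after their values were seen, had differences of 0.08, 0.01 and -0.10 in IRI against sham, with adjusted p from 0.827 to 0.983.

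Of 16 tested targets in blood vessels, blood and iron, 8 were called in each injured group, beside 18.3%, 17.3% and 27.9% of all genes. Against sham, 6 of the 8 were higher and 2 lower in each group. Those higher in IRI included the haem oxygenase Hmox1 (3.69, adjusted p = 0.00160), the vasoconstrictor Edn1 (2.28, adjusted p = 0.000985), Angptl4 (2.23, adjusted p = 0.00586), the copper-binding ferroxidase Cp (2.08, adjusted p = 0.0303) and the transferrin receptor Tfrc (1.22, adjusted p = 0.0121). Those lower were Igfbp1, which binds insulin-like growth factors (-2.06, adjusted p = 0.0288), and the chemokine Cxcl12 (-1.42, adjusted p = 0.00687). Vegfa, the vascular growth factor, named after its value was seen, had a difference of -0.65 in IRI (adjusted p = 0.148). In mimic against IRI the only call of this list was Flt1, a receptor of Vegfa on endothelium (1.17, adjusted p = 0.0390), beside 15.4% of all genes.

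Of 23 targets in matrix, pH, stress and feedback, 5 were called in IRI against sham, beside 18.3% of all genes. Of the 5, 2 were higher and 3 lower. Ddit4, an inhibitor of mTOR signalling, rose by 1.45 (adjusted p = 0.00438) and the repressor Bhlhe40 by 0.98 (adjusted p = 0.0293). The carbonic anhydrases Car12 and Car9, which regulate pH, fell by 0.76 and 1.56, and the Myc antagonist Mxi1 by 0.85 (adjusted p of 0.0351, 0.0461 and 0.0242). In mimic against sham 8 were called, 3 higher and 5 lower, beside 27.9% of all genes. Loxl2 and Lox, which crosslink collagen, rose by 1.51 and 1.22 there (adjusted p of 0.00904 and 0.0272), and both also rose in control-miRNA mice (1.18 and 1.77, adjusted p of 0.0261 and 0.0123). Bnip3l, the closest relative of Bnip3 and also a mitophagy receptor, fell by 0.64 in mimic against sham (adjusted p = 0.0286), and its difference in IRI was -0.42 (adjusted p = 0.120).

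Adrenomedullin acts through the receptor Calcrl and its partners. Of 6 tested receptor parts and related peptides 1 was called in IRI against sham, 0 in control-miRNA against sham (2 at an unadjusted p under 0.05 in limma) and 1 in mimic against sham. Over all genes the shares called were 18.3%, 17.3% and 27.9%. Ramp3, which turns the receptor Calcrl into an adrenomedullin receptor, fell by 0.83 in IRI (adjusted p = 0.0179) and was 1.03 higher in mimic than in IRI mice (adjusted p = 0.0390). Ramp2, with the same function, rose by 0.96 in mimic against sham (adjusted p = 0.0165).

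A further list joined genes linked to Ndrg1 or Bnip3 by family or name with the mitophagy genes Pink1 and Fundc1, which are not their relatives. Of its 7 tested genes, 4 were called in each injured group against sham, beside 18.3%, 17.3% and 27.9% of all genes. Against sham, 1 was higher and 3 were lower for IRI, likewise 1 and 3 for control-miRNA, and 0 and 4 for the mimic group. The one that rose was Bnip1, by 0.85 in IRI and 0.72 in control-miRNA mice (adjusted p of 0.0260 and 0.0428). Ndrg2 fell by 1.36, 1.11 and 1.35 in the IRI, control-miRNA and mimic groups (adjusted p of 0.00490, 0.0103 and 0.00433), and Ndrg3 by 0.79, 0.80 and 1.02 (adjusted p of 0.0184, 0.0188 and 0.00671). Pink1, the kinase that starts the other main route of mitophagy, fell by 1.55, 1.51 and 1.78 (adjusted p of 0.00896, 0.0103 and 0.00476). Fundc1, a mitophagy receptor of the outer membrane like Bnip3, was lower in mimic mice, with differences of -1.01 from sham and -0.87 from IRI (adjusted p of 0.00799 and 0.0390). In IRI against sham it was at -0.15 (adjusted p = 0.562).

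Endothelial, stromal and some immune markers were higher in mimic than in IRI kidneys. In mimic against IRI 9.85% of all genes were called higher and 5.59% lower. Every call in that comparison was lost with array brightness as a covariate, with array weights or with only the 4 arrays compared. Of 10 endothelial markers 6 were higher in mimic than in IRI mice, and their summed level was 26.3 to 27.2 in IRI, 25.5 to 31.6 in control-miRNA, 36.7 to 42.8 in sham and 48.2 to 56.4 in mimic mice. Of 7 fibroblast and pericyte markers 6 were higher in mimic than in IRI mice, with summed levels of 88.1 to 88.2 in mimic, 36.5 to 54.5 in control-miRNA, 21.5 to 28.9 in IRI and 23.7 to 26.7 in sham mice. In control-miRNA against IRI all 7 were positive and 6 had an unadjusted p under 0.05, with 0 called in limma. All markers of both lists were well above background in at least 1 group. Flt1, named above as a target, is itself on the endothelial list. Summed levels of immune markers were higher in mimic than in IRI mice too. The summed level of 7 macrophage markers was 38.9 to 72.8 in mimic against 23.1 to 23.6 in IRI mice, with Itgam (2.52) and Csf1r (0.91) called higher and Cd14 (-1.10) lower. A linear sum gives most weight to the genes with the highest levels, and Itgam had the largest of these called differences. The median difference of the 7 was 0.89, with 6 positive, and C1qa was at 0.09. In sham mice the summed macrophage level was 33.4 to 46.8, which overlaps the mimic range. In IRI against sham 3 of the 7 were called lower, among them Itgam (-2.05) and Csf1r (-1.70), beside 8.82% of all genes. There 2 were called higher, among them Cd14 (4.21), beside 9.47% of all genes. The summed level of 7 neutrophil markers was 76.2 to 101 in mimic, 46.5 to 52.6 in IRI and 46.9 to 52.5 in sham mice. Csf3r (0.98) was called higher in mimic than in IRI mice. Csf3r had the highest level of that list, with a mean of 5.31 in IRI, so it weighs most in the sum. The median difference of the 7 was 0.20 in mimic minus IRI, with 5 positive. In mimic minus control-miRNA it was -0.88, with 2 positive. For 4 lymphocyte markers the summed level was 5.48 to 6.74 in mimic against 3.33 to 4.20 in IRI mice, with 0 called (3 at an unadjusted p under 0.05 in limma). Sham mice, at 4.77 to 5.78, overlapped the mimic range. The part of the cell make-up in the mimic differences of Egln3 and Bnip3 was not tested. All 6 markers of tubular injury rose in every injured group against sham. Of these, Havcr1 was not well above background in sham mice and passed the filter only through injured groups. Over all genes 9.47%, 9.47% and 14.9% were called higher in IRI, control-miRNA and mimic mice against sham.

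**Figure D5:**
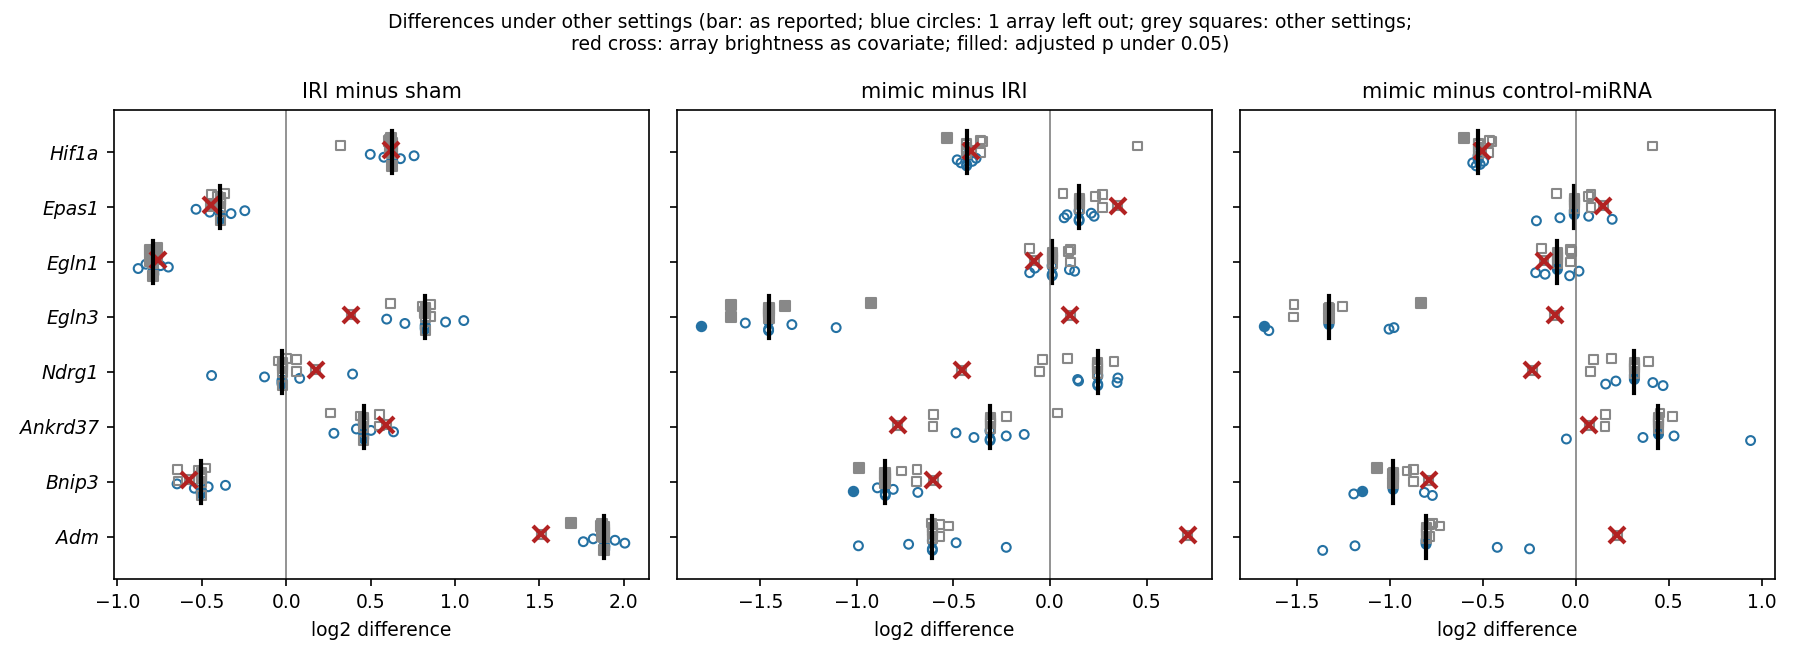
Log2 differences (x axis) of the 8 genes under other settings in 3 comparisons, with a bar for the value as reported, blue circles for fits without 1 array, grey squares for other settings and a red cross for array brightness as a covariate, filled where the adjusted p was under 0.05. The x axes differ between panels. The cross of Egln3 in mimic minus IRI lies at 0.10 against -1.46 as reported, and the open square of Hif1a at 0.32 in IRI minus sham is the mean of its probes.

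The genes most like each member over the 8 arrays are given as a description, from 14683 genes compared, since all genes share the same 8 arrays. Hif1a was closest to Eif4h (Pearson r = 0.989), Ube2e2 (0.987) and Pgam5 (0.982), Egln3 to Rab6a (0.995), Rpl7 (0.992) and Samd10 (0.991), and Adm to Ciapin1 (0.996), Lrrc20 (0.992) and Flvcr1 (0.990). Bnip3 was closest to Dusp28, Clcn3 and Tex2 (0.986 to 0.988). For the members with no called difference the closest genes were Vldlr, Sspn and Lypd6 for Epas1 (0.931 to 0.949), Oscar, Fcnaos and Spef1l for Ndrg1 (0.942 to 0.959), and Znrd1 and Hspa5 for Ankrd37 (0.933 to 0.948).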

How the data were processed

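RNA from 30 mg of left kidney of 8 mice was labelled with Cy3 (50 ng) and read on Agilent 1-colour arrays. The deposited files hold a processed intensity from Agilent Feature Extraction 12.0.3.1, from which local background and spatial trend had been removed, per the file headers, with raw intensities and flags. The table deposited for the series gives the authors' linear ratio of each probe to its median over arrays, with scaling not given in the sources used here, and served as an alternative. The median ratio was 0.992 to 1.02 per array.

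Control spots and spots flagged as outliers were left out. The log2 intensity minus the 75th percentile of the array was averaged per probe. A probe was kept if at least 1 group had it well above background on both of its arrays (32218 probes), and the probe with the highest mean stood for its gene. Names came from the files, updated where an accession or symbol matched a RefSeq table of GRCm38.p6, 34615 probes through an accession and 283 through an older symbol of 56605. Probe positions are those of mm9 in the files.

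limma 3.58.1 in R 4.3.3 (lmFit, eBayes) was fitted to all 8 arrays with a mean per group, with Benjamini-Hochberg adjustment over 21271 genes and a threshold of 0.05. Nothing in the sources used here says how the mice were housed, so p-values measure the spread between these mice. Where all arrays of a group were not well above background the fold is a lower bound, "at least N-fold". It sets the bright group's mean against a dim mean in which no array counts below its lowest signal for a probe well above background. Outside the members, the text names up to 6 called genes per list and comparison by smallest p, the 3 genes most like each member, and genes stated to be chosen later. Results for some of them are left out. The members and lists were chosen with earlier results of these data known. The fits were tested on simulated data in which every group had the same spread, unlike the groups here. At a simulated 2-fold change, 13.4% to 34.3% of changed genes were called in the right direction, depending on the comparison. A difference that did not pass the test thus does not show that a gene was unchanged. Alternatives were other background corrections, scalings, filters, probe rules, error models, brightness as a covariate, the authors' ratios and leaving out arrays, and 1 was added after seeing the data (without both mimic arrays).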

Additional observations from a re-analysis of the deposited data

How the results depend on the processing

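No paired analysis was possible, since each mouse gave 1 array and a number shared between groups does not link mice. Over 936 alternative values of the 48 member differences, 805 kept sign and side of the threshold, 67 lost the call, 20 gained it and 1 reversed, and 43 changed sign while passing under neither setting. These values are not all distinct, so the tallies overstate the number of separate checks. Leaving out either array of a group outside a comparison, or both mimic arrays, gave the same result there. The authors' ratios nearly repeated quantile normalization (3622 and 3619 genes called in IRI against sham). The reversed value is the mimic minus IRI difference of Egln3, 0.10 with array brightness as a covariate. The cause was not tested.

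Called members, as reported 3, 3, 2, 0, 2 and 0 for IRI, control-miRNA and mimic against sham, control-miRNA and mimic against IRI and mimic against control-miRNA, moved as follows. IRI against sham gave 1 with no filter on dim probes and 0 with brightness as a covariate, control-miRNA against sham 1 with no filter, and mimic against sham 1 with no filter, 1 with only the 4 arrays compared and 0 with brightness, but 3 with normexp, the percentile over probes above background on all arrays, those probes alone, the mean of all probes or the intensity trend. Mimic against IRI gave 1 with quantile normalization, with the percentile over probes above background on all arrays and with the authors' ratios, and 0 with only the 4 arrays compared, array weights or brightness. Mimic against control-miRNA gave 3 with normexp (offset 50), 2 with probes above background on all arrays and 2 with an intensity trend and robust prior. Leaving out 1 array gave 0 to 3 in the first 3 comparisons, 0 in control-miRNA against IRI and 0 to 2 in both mimic comparisons with injured mice.

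Called pathway genes, as reported 25, 24, 32, 0, 15 and 0 in the same order, moved likewise. IRI against sham gave 14 with no filter, 41 with only the 4 arrays compared, 47 with array weights, 13 with brightness and 39 without both mimic arrays. Control-miRNA against sham gave 37 with array weights and mimic against sham 1 with brightness. Mimic against IRI gave 38 with normexp and 0 with only the 4 arrays, array weights or brightness, and mimic against control-miRNA 21 with normexp, 4 with probes above background on all arrays and 6 with the intensity trend. Leaving out 1 array gave 8 to 39, 6 to 35, 10 to 44, 0, 0 to 32 and 0 to 30.

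Over all genes the called count was 3890, 3689, 5937 and 3284 in IRI, control-miRNA and mimic against sham and mimic against IRI, and the alternatives spanned 797 to 7950, 674 to 6027, 116 to 7965 and 0 to 11855. For mimic against control-miRNA they spanned 0 to 6315. Of the calls in mimic against IRI 63.8% were higher, against 51.8% with quantile normalization, 51.6% with the authors' ratios and 75.9% with the percentile over probes above background on all arrays. The median of all genes in mimic minus sham was 0.10, against 0.22 with normexp and 0.03 with quantile normalization. Low signal limits the opposite-strand Hif1a probe (unscaled signal 22.6 to 40.8) and the Hif1a probe that passed the background test on 0 of the 8 arrays.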
